A study of Mus musculus with 8 samples.

Results

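The genes examined here encode the machinery that brings proteins into mitochondria, measured by RNA sequencing in mouse hearts with and without Lrpprc. The set holds the protein-coding genes whose symbol begins with Timm or Tomm followed by a digit, together with Pam16, Dnajc19, Dnajc15, Grpel1, Grpel2, Samm50, Mtx1, Mtx2, Mtx3, Chchd4 and Gfer. By this rule 36 of 50599 records were members, out of 21751 that code for protein. Of the 36 members, 34 were measured, and Tomm20l and Timm8a2 had 0 counts in all 8 libraries. A count of 0 allows up to 3 counts in a library, as far as counting error goes. Total RNA came from whole hearts of C57BL/6N males aged 12 weeks, with 4 wildtype and 4 Lrpprc knockout mice and 1 library from each mouse. In the knockout mice Lrpprc, which encodes an RNA-binding protein of mitochondria, was removed in heart and skeletal muscle alone, because its loss from the whole body is lethal in the embryo. The study describes its knockout mice as Lrpprc loxP/loxP,Cre+ and its controls, labelled wildtype, as Lrpprc loxP/loxP, so both groups carry the floxed allele. The promoter that drove Cre is not given in the sources used here. Cells of the heart other than muscle would retain the gene.

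Nearly all mitochondrial proteins are made in the cytosol and must cross or enter the mitochondrial membranes. The TOM complex of the outer membrane receives them through its receptors and passes them through the Tomm40 pore. From there the SAM complex inserts barrel-shaped proteins into the outer membrane, the MIA pathway oxidises and traps cysteine-rich proteins between the membranes, and small TIM chaperones escort hydrophobic proteins to the TIM22 complex, which inserts carriers into the inner membrane. Proteins with a cleavable presequence cross the inner membrane through the TIM23 complex, and a motor built around the mitochondrial Hsp70 protein, Hspa9, pulls them into the matrix. The heart is among the tissues richest in mitochondria.

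The libraries held between about 35218500 and 47743400 expected counts. Lrpprc had 3665 ± 216 normalised counts in the wildtype, against 577 ± 48.6 in the knockout (SD, n = 4) (DESeq2, log2 fold change -2.67, adjusted p = 3.77e-153), with no overlap between the groups. Mitochondrial rRNA took 44.0% to 46.9% of the counts in the wildtype and 65.6% to 67.8% in the knockout, so the scaling of the libraries bears on every fold change below. Cardiomyocyte markers were present in all libraries, and their summed normalised count was 924141 to 1031200 in the wildtype and 443424 to 585911 in the knockout, with 5 of 6 markers lower and 0 higher. Fibroblast markers, with 3 of 6 higher, summed to between 17177 and 17913 in the wildtype and between 16247 and 53538 in the knockout. The 3 were the collagen genes Col1a1, Col1a2 and Col3a1, while Pdgfra, Dcn and Lum did not pass. Macrophage markers, with 4 of 5 higher, summed to between 1947 and 2510 in the wildtype and between 2140 and 5132 in the knockout. Of 5 endothelial, 3 erythroid and 3 adipose markers none passed the test (DESeq2), 2 of 4 atrial markers were lower, and no marker was at 0 in every library. In RNA from whole tissue, fewer cells of a type and less RNA per cell cannot be told apart. The part of these marker shifts in the values of the import genes was not tested. Knockout replicate 3 stood apart from the other knockout libraries on the second principal component, at -68.5 against 22.9 to 27.3, and results are therefore also given without it.

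The first question was how many import genes changed when Lrpprc was lost. Of the 34 measured members, 12 were higher in the knockout and 6 were lower at an adjusted p under 0.05 (DESeq2), and 16 did not pass. These are 35.3% and 17.6% of the measured members. Among all 19959 genes tested, 18.2% were higher and 15.5% were lower by the same rule. The members' share of higher calls was thus above that of all genes, and their share of lower calls was close to it. These shares are set at unlike levels. Only 15754 genes averaged 10 normalised counts or more, while each measured member had at least 123 counts in every library. The median log2 fold change was 0.16 over the members and 0.01 over all genes tested. A second tool, edgeR, called the same 12 and the same 6 members, where it called 20.1% of 15792 genes higher and 19.6% lower. Every knockout library lay above every wildtype library in 11 of the 34 measured members, beside 16.7% of all genes tested, and below in 6 of 34, or 17.6%, beside 16.4% of all genes. These 11 were among the 12 higher members, without Tomm20, and the 6 were the lower members. The higher members were Grpel2, Timm8a1, Chchd4, Timm10, Gfer, Grpel1, Tomm20, Timm50, Timm17a, Dnajc15, Tomm70a and Mtx2, and the lower members were Timm21, Dnajc19, Tomm40l, Timm29, Mtx3 and Timm22. Of these 18, Grpel2 and Timm8a1 changed by 2-fold or more.

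These counts differed when the libraries were scaled to totals. Scaled to total counts, in which mitochondrial rRNA has a large share, 6 members were higher and 12 lower, where 9.64% of all genes tested were higher and 29.6% lower. The median over the 15754 genes that averaged 10 normalised counts or more moved by -0.30. The other total left out mitochondrial rRNA but still held the mitochondrial mRNAs. The study reports reduced stability of these mRNAs in the knockout, except for mt-Nd6, and their part in this scaling was not tested. Scaled to this total, 27 were higher and 0 lower, where 37.8% of all genes were higher and 5.26% lower. The same median moved by 0.43. Relative to that median, the members' median was 0.15 by the size factors used, 0.13 by total counts and 0.14 by totals lacking mitochondrial rRNA. All 12 higher members kept a positive fold change under the 3 scalings, and Grpel2, Timm8a1, Chchd4, Timm10, Gfer and Grpel1 passed the test under each of them. The other 6 did not pass under total counts, where Tomm20 had 0.20, Timm50 0.20, Timm17a 0.19, Dnajc15 0.12, Tomm70a 0.12 and Mtx2 0.05 (DESeq2, adjusted p = 0.365, 0.0635, 0.14, 0.423, 0.402 and 0.789). Of the 6 lower members, 5 kept a negative fold change under the 3 scalings, Timm22 had 0.04 without mitochondrial rRNA, and none of the 6 passed the test there. With size factors taken only from genes outside the mitochondrial genome and its copies, the counts were 12 and 6, for the same genes. There 3627 of all genes were higher and 3106 lower, and the median over all genes moved by -0.0006. Without knockout replicate 3 the counts were again 12 and 6, for the same genes, although the members' median was then 0.10. It was 0.09 without knockout replicate 1 and 0.28 without knockout replicate 4.

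**Figure D1:**
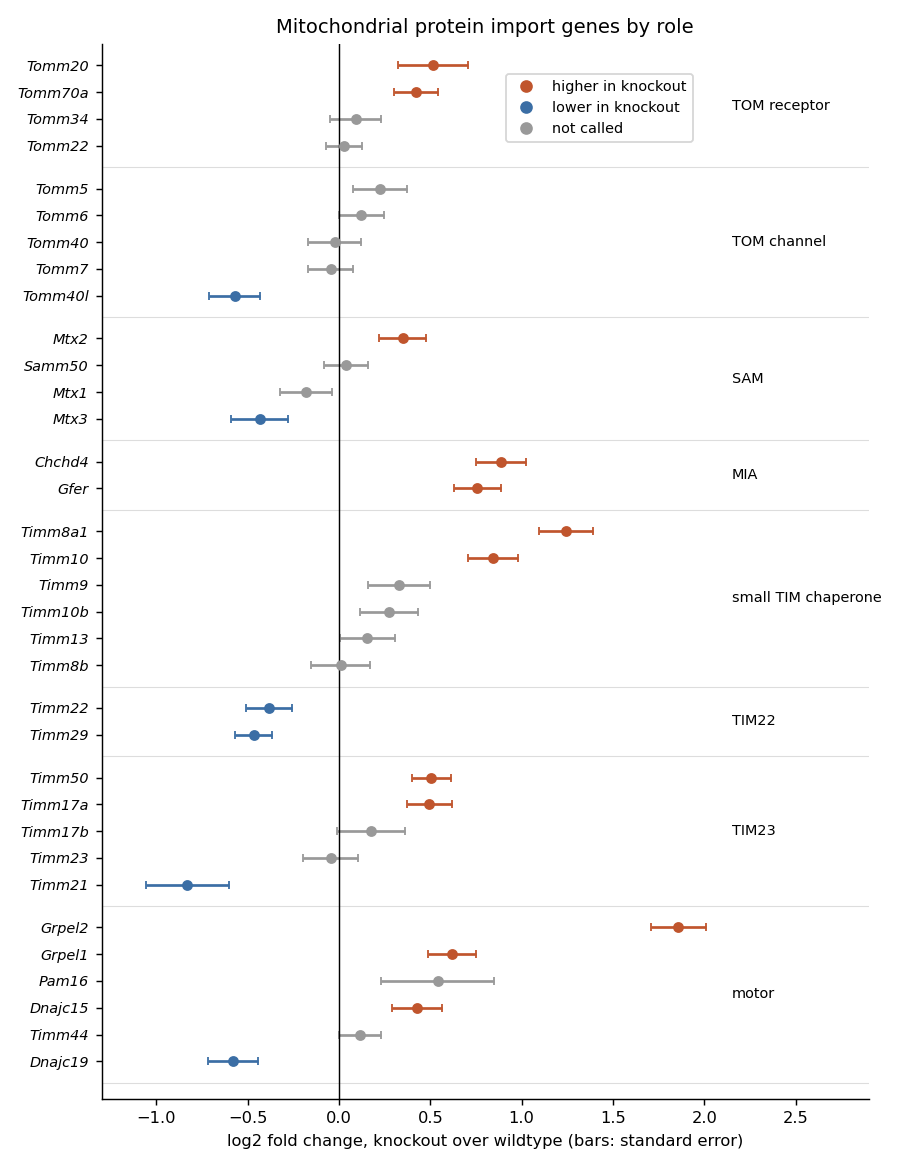
Log2 fold change of the 34 measured import genes, knockout over wildtype, with the standard error as bars, grouped by role and coloured by the call at an adjusted p under 0.05 (DESeq2, n = 4 in each group). Grpel2 lies farthest to the right with 1.86 and Timm21 farthest to the left with -0.83, and a scaling to total counts would move all genes left by about 0.30, one without mitochondrial rRNA right by about 0.43.

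Taken per length, the members spanned a wide range of levels. The level given here is the deposited TPM rescaled so that the records outside the mitochondrial genome and its nuclear copies serve as the whole. Timm23, the channel protein of the inner membrane, had the highest wildtype level, at 140.3 ± 7.83 (SD, n = 4), followed by the small chaperone Timm8b with 124.7 ± 7.80 and by Timm17a with 104.2 ± 9.40. The lowest measured level was that of Mtx3, a metaxin of the SAM complex, at 3.57 ± 0.26. In the knockout Timm17a came first with 155.4 ± 11.7 (SD, n = 4), though its spread overlapped that of Timm23 at 143.3 ± 22.0. Grpel2 went from rank 33 to rank 25 and Timm8a1 from rank 30 to rank 23, while Dnajc19 went from rank 7 to rank 14 and Timm21 from rank 24 to rank 32. The genes at the low end of the wildtype order thus included several of those with the largest rises. Summed over the members, the level was 1379 ± 43.0 in the wildtype and 1679 ± 109 in the knockout. As a share of counts outside the mitochondrial genome and its copies the members took 1623 ± 41.0 CPM in the wildtype and 1969 ± 127 in the knockout (log2 ratio 0.28), but as a share of all counts they took 664.3 ± 28.4 and 631.8 ± 28.8 (log2 ratio -0.07). The direction of the sum therefore turned with the denominator.

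**Figure D2:**
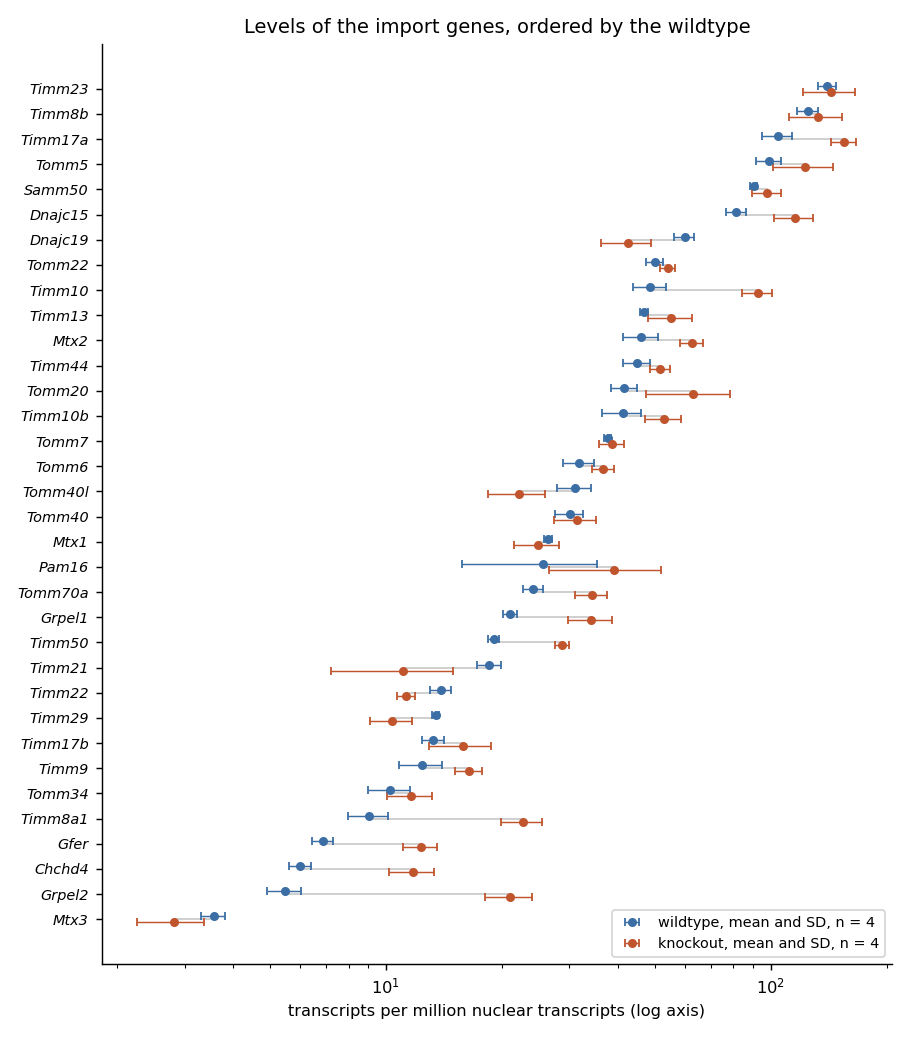
Level of the 34 measured import genes in rescaled TPM on a log axis, as mean and SD of 4 libraries in each group, ordered by the wildtype. Wildtype levels run from 3.57 for Mtx3 to 140.3 for Timm23, and the widest gaps between the groups are those of Grpel2 and Timm8a1 among the genes of low level.

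Among the receptors of the TOM complex and the cytosolic Tomm34, 2 of 4 measured members were higher and 0 lower, beside 18.2% and 15.5% of all genes, with a median log2 fold change of 0.26. Tomm20 (chr8:126930667-126945844, minus strand, GRCm38) encodes the receptor that binds presequences. Across the wildtype libraries, in the order of their replicate numbers, its normalised counts were 983.5, 1077, 1223 and 1033, against 1453, 1207, 2226 and 1290 across the knockout libraries. The groups overlapped, since knockout replicate 2 lay below wildtype replicate 3, and knockout replicate 3 was far above the rest. The log2 fold change was 0.52 ± 0.19 (SE, DESeq2, adjusted p = 0.0253). Leaving out knockout replicate 3 gave 0.29 (DESeq2, adjusted p = 0.0356), and the call was lost without wildtype replicate 1, 2 or 4 (DESeq2, adjusted p = 0.093, 0.0647 and 0.0774). The processed pseudogene Gm14494 on chromosome 2 is nearly identical to the Tomm20 coding sequence and took 1.85% to 4.87% of the counts of both. A window of 90 coding bases shows how close the pair is, with the 1 base that differs in it in capitals. Over 435 compared coding bases, 2 differ.

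Tomm20 (chr8:126945618-126945707, minus strand): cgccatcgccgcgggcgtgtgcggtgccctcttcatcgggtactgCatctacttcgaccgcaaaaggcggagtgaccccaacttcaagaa
Gm14494 (chr2:153826188-153826277, plus strand): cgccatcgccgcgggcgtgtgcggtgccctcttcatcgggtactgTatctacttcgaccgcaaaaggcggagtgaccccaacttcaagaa

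With the counts of Tomm20 and its copies summed, its log2 fold change was 0.53 (DESeq2, adjusted p = 0.026), so the copies changed it little. Tomm70a, the receptor for carriers and other proteins with internal signals, had 1544 ± 109 normalised counts in the wildtype and 2069 ± 289 in the knockout (SD, n = 4). Its log2 fold change was 0.42 ± 0.12 (SE, DESeq2, adjusted p = 0.00265), and the groups did not overlap. Tomm22, the central receptor, had 762.2 ± 44.1 and 776.4 ± 50.0, with a 95% interval of the log2 fold change from -0.16 to 0.22. Tomm34, a co-chaperone of the cytosol, had 0.09 and did not pass.

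In the channel of the TOM complex 0 of 5 members were higher and 1, or 20%, was lower, near the 15.5% of all genes, with a median of -0.02. Tomm40, which forms the pore, had normalised counts of 678.2, 762.3, 826.8 and 671.0 in the wildtype libraries and 872.6, 714.0, 705.8 and 598.0 in the knockout libraries. Its highest and its lowest library were both knockouts, and the 95% interval of its log2 fold change ran from -0.30 to 0.26. Tomm40l (chr1:171216011-171222514, minus strand), a paralogue of the pore, had 999.6, 1092, 935.4 and 857.6 in the wildtype and 787.7, 642.8, 540.4 and 639.9 in the knockout. Every knockout library lay below every wildtype library, and Tomm40l fell by 0.57 ± 0.14 on the log2 scale (SE, DESeq2, adjusted p = 0.000332). Under total counts without mitochondrial rRNA the value was -0.14 (DESeq2, adjusted p = 0.491). The small subunits Tomm5, Tomm6 and Tomm7, which shape and stabilise the complex, had log2 fold changes of 0.22, 0.12 and -0.05 and did not pass. Over the omissions of 1 library these ran from 0.082 to 0.28, from 0.053 to 0.16 and from -0.11 to 0.044.

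In the SAM complex 1 of 4 members was higher and 1 lower, or 25% each way, not far from the 18.2% and 15.5% of all genes. Samm50, the barrel protein that carries out the insertion, had 2405 ± 53.1 normalised counts in the wildtype and 2470 ± 360 in the knockout (SD, n = 4), a log2 fold change of 0.04 that did not pass. Mtx2 had 1051 ± 126 and 1338 ± 143, and its log2 fold change was 0.35 ± 0.13 (SE, DESeq2, adjusted p = 0.0209). The groups of Mtx2 did not overlap, yet the call was lost without wildtype replicate 1, 2 or 4 (DESeq2, adjusted p = 0.101, 0.0875 and 0.0552). Mtx1, the partner of Mtx2 in the complex, had 215.7, 233.1, 221.9 and 230.3 in the wildtype and 184.6, 235.6, 204.3 and 174.6 in the knockout. These overlapped, and its log2 fold change of -0.18 did not pass, although a fit that ignored the length of the genes gave -0.36 (DESeq2, adjusted p = 0.021). Mtx3 had 414.0, 377.5, 376.0 and 374.0 in the wildtype and 360.3, 289.9, 228.3 and 263.3 in the knockout, with all knockout libraries below. It fell by 0.43 ± 0.16 on the log2 scale (SE, DESeq2, adjusted p = 0.0193), and it did not pass without knockout replicate 4 or without wildtype replicate 1, 2 or 4 (DESeq2, adjusted p = 0.0789, 0.0845, 0.0553 and 0.055). Under total counts without mitochondrial rRNA the fold change of Mtx3 was -0.004 (DESeq2, adjusted p = 0.989).

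Both genes of the MIA pathway rose, where 18.2% of all genes were higher. Chchd4 (chr6:91462172-91473546, minus strand) encodes the oxidoreductase that traps incoming proteins by disulfide bonds. Its normalised counts were 312.4, 350.7, 374.4 and 319.5 in the wildtype and 664.1, 501.5, 689.3 and 655.1 in the knockout. The lowest knockout library was well above the highest wildtype library, and the log2 fold change was 0.89 ± 0.14 (SE, DESeq2, adjusted p = 2.63e-09). Gfer (chr17:24693187-24696156, minus strand) encodes the sulfhydryl oxidase that reoxidises Chchd4. It had 194.0, 181.0, 204.8 and 200.9 in the wildtype and 373.0, 300.4, 319.2 and 326.3 in the knockout. On the log2 scale the change was 0.76 ± 0.13 (SE, DESeq2, adjusted p = 6.07e-08). The groups of Gfer were also wholly apart.

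Of the small TIM chaperones, 2 of 6 measured members were higher and 0 lower, beside 18.2% and 15.5% of all genes, with a median of 0.30. These proteins work as rings of alternating partners, Timm9 with Timm10 and Timm8 proteins with Timm13. Timm8a1 (chrX:134537256-134541865, minus strand) had 223.7, 178.1, 201.2 and 200.005 normalised counts in the wildtype and 509.4, 382.6, 540.4 and 467.3 in the knockout. The knockout libraries were all above the wildtype, and the log2 fold change was 1.24 ± 0.15 (SE, DESeq2, adjusted p = 3.29e-15), which is 2.37-fold. A transcribed processed pseudogene, Gm9797 on chromosome 10, carries the whole coding sequence of Timm8a1 without a difference over 291 bases, and it took 18.8% to 29.9% of the counts of both. The first 90 coding bases are shown because fragments that lie wholly within identical bases cannot be assigned to either gene by their sequence.

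Timm8a1 (chrX:134541499-134541588, minus strand) and Gm9797 (chr10:11609298-11609387, plus strand): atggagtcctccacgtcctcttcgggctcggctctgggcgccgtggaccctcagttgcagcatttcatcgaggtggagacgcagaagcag

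Summing Timm8a1 and its copy gave the same log2 fold change, 1.24 ± 0.16 (SE, DESeq2, adjusted p = 4.31e-14). Its partner Timm13 had 430.6 ± 16.4 and 480.6 ± 85.9 and did not pass. It was called without knockout replicate 4, with a value of 0.28 on the log2 scale (DESeq2, adjusted p = 0.0488), and under total counts without mitochondrial rRNA, at 0.57 (DESeq2, adjusted p = 0.000123). Timm8b had 733.2, 749.2, 859.3 and 767.8 in the wildtype and 775.6, 723.3, 1016 and 616.2 in the knockout. Its groups overlapped and its log2 fold change was 0.01. Timm10 (chr2:84826997-84830213, plus strand) had 404.9, 443.7, 524.4 and 432.5 in the wildtype and 918.0, 707.5, 871.7 and 741.1 in the knockout. All knockout libraries were above, with a log2 fold change of 0.84 ± 0.14 (SE, DESeq2, adjusted p = 1e-08). The ring partner of Timm10, Timm9, had 157.6 ± 20.6 and 197.6 ± 26.3, with a log2 fold change of 0.33 that did not pass (DESeq2, adjusted p = 0.123). Timm10b, which docks the ring on the TIM22 complex, had 311.8, 274.8, 352.8 and 282.0 in the wildtype and 396.8, 389.7, 409.7 and 284.5 in the knockout. Knockout replicate 4 alone lay within the wildtype range. The log2 fold change of Timm10b was 0.28 and did not pass (DESeq2, adjusted p = 0.18), but leaving out knockout replicate 4 gave 0.39 (DESeq2, adjusted p = 0.0299). A fit that ignored the length of the genes gave 0.077 (DESeq2, adjusted p = 0.703).

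Both members of the TIM22 complex fell with the size factors used, where 15.5% of all genes were lower, and neither passed under total counts without mitochondrial rRNA. Timm22, the channel that inserts carriers, had 304.6 ± 16.2 normalised counts in the wildtype and 233.9 ± 20.4 in the knockout (SD, n = 4). It fell by 0.38 ± 0.13 on the log2 scale (SE, DESeq2, adjusted p = 0.00931), and the call was lost without knockout replicate 4 or wildtype replicate 3 (DESeq2, adjusted p = 0.0555 and 0.0549). Timm29, a subunit that joins TIM22 to the outer membrane, had 716.9 ± 14.9 and 518.4 ± 46.1. It fell by 0.47 ± 0.10 (SE, DESeq2, adjusted p = 4.01e-05). In both genes the knockout libraries all lay below the wildtype libraries. Under total counts without mitochondrial rRNA the values were 0.04 for Timm22 and -0.04 for Timm29.

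In the TIM23 complex 2 of 5 members were higher and 1 lower, or 40% and 20%, beside 18.2% and 15.5% of all genes, with a median of 0.17. Timm23, the channel, had 2481 ± 115 normalised counts in the wildtype and 2402 ± 507 in the knockout (SD, n = 4), and the 95% interval of its log2 fold change ran from -0.34 to 0.25. Timm17a (chr1:135295213-135313778, minus strand), a second membrane subunit of the channel, had 1761, 1742, 1614 and 1474 in the wildtype and 2411, 2087, 2713 and 2079 in the knockout. Its groups did not overlap, and the log2 fold change was 0.50 ± 0.12 (SE, DESeq2, adjusted p = 0.000319), a call that was lost under total counts. Its paralogue Timm17b had 244.5, 260.1, 240.0 and 219.7 in the wildtype and 324.8, 237.1, 331.2 and 199.6 in the knockout. Of the knockout values of Timm17b, replicates 1 and 3 lay above the wildtype range, replicate 2 within it and replicate 4 below it, and its log2 fold change of 0.17 did not pass.

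Timm50 (chr7:28305516-28312072, minus strand), the receptor that takes presequences to the TIM23 channel, had 421.6, 421.8, 452.0 and 439.5 in the wildtype and 619.4, 580.0, 691.8 and 573.4 in the knockout. Every knockout library was higher, with a log2 fold change of 0.51 ± 0.11 (SE, DESeq2, adjusted p = 2.03e-05) and again no call under total counts. Timm21 (chr18:84946191-84951524, minus strand), which links TIM23 with the TOM complex and with assembly of the respiratory chain, went the other way. It had 373.3, 376.4, 414.6 and 346.1 in the wildtype and 321.8, 195.4, 141.7 and 189.9 in the knockout. Knockout replicate 1 lay just under the wildtype range and the others well below it. Timm21 fell by 0.83 ± 0.23 on the log2 scale (SE, DESeq2, adjusted p = 0.00131). Without mitochondrial rRNA in the total the value was -0.40 (DESeq2, adjusted p = 0.174).

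The import motor held the member with the largest change of the set. Of its 6 genes 3 were higher and 1 lower, or 50% and 16.7%, with a median of 0.48. The lower share was about the 15.5% of all genes, and the higher share compares with 18.2%. Grpel2 (chr18:61712424-61726325, minus strand), a nucleotide exchange factor that lets the Hsp70 protein release its client, had 344.2, 341.7, 428.0 and 382.8 normalised counts in the wildtype and 1360, 1095, 1661 and 1311 in the knockout. The lowest knockout library held more than the highest wildtype library by a wide margin. The log2 fold change was 1.86 ± 0.15 (SE, DESeq2, adjusted p = 1.92e-32), or 3.62-fold. Grpel1 (chr5:36464998-36474080, plus strand), the other exchange factor and the more abundant of the pair, had 1205, 1210, 1274 and 1307 in the wildtype and 1763, 1737, 2420 and 1765 in the knockout. All knockout libraries were above, with replicate 3 the highest, and the log2 fold change was 0.62 ± 0.13 (SE, DESeq2, adjusted p = 1.97e-05).

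The J proteins of the motor, which stimulate the ATPase of Hspa9, moved in opposite directions. Dnajc19 (chr3:34056020-34081321, minus strand) had 512.3, 505.0, 494.6 and 458.8 in the wildtype and 410.2, 313.6, 299.2 and 297.3 in the knockout. It fell by 0.58 ± 0.14 on the log2 scale (SE, DESeq2, adjusted p = 0.000159), and its groups were apart. Under total counts without mitochondrial rRNA its value was -0.15 (DESeq2, adjusted p = 0.404). Its paralogue Dnajc15 (chr14:77820681-77875125, minus strand) had 715.8, 684.7, 723.6 and 649.7 in the wildtype and 933.4, 846.4, 1161 and 791.2 in the knockout. All knockout libraries of Dnajc15 were above the wildtype, with a log2 fold change of 0.43 ± 0.14 (SE, DESeq2, adjusted p = 0.00815), and under total counts the value was 0.12 (DESeq2, adjusted p = 0.423). Timm44, the scaffold that ties the motor to the channel, had 1265 ± 95.3 and 1372 ± 151 (SD, n = 4) and did not pass.

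Pam16, a J-like protein that restrains the J proteins, had 207.0, 293.0, 133.3 and 136.5 in the wildtype and 183.0, 313.0, 407.1 and 215.6 in the knockout. This was the widest relative spread within the wildtype among the measured members. Its log2 fold change was 0.54 ± 0.31 (SE) and did not pass (DESeq2, adjusted p = 0.176), whereas without wildtype replicate 2 it was 0.82 (DESeq2, adjusted p = 0.0271). Leaving out knockout replicate 3 gave 0.30 (DESeq2, adjusted p = 0.458). An annotated protein-coding gene on chromosome 10, Gm9803, has the same coding sequence as Pam16, with 0 of 375 bases different, and it took between 7.68% and 64.4% of the counts of both, depending on the library. The first 90 coding bases span an intron in Pam16 and none in the copy. They are shown because fragments that lie wholly within identical bases of the transcripts cannot be divided by sequence.

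Pam16 (coding bases within chr16:4617261-4624853, minus strand) and Gm9803 (chr10:43524168-43524257, plus strand): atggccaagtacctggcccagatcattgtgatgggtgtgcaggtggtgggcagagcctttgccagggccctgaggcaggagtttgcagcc

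With the counts of Pam16 and Gm9803 summed, the normalised counts were 337.9, 316.9, 373.5 and 351.1 in the wildtype and 403.6, 355.8, 469.7 and 340.1 in the knockout. The spread within each group was then much smaller, and the log2 fold change was 0.18 ± 0.14 (SE, DESeq2, adjusted p = 0.334). The value of Pam16 as deposited thus rests on how the reads were divided between it and its copy. For Timm23, whose 5 copies took up to 4.56% of the counts, and for Timm10b and Tomm6, which share exon bases on the same strand with the records Gm45799 and Gm21981 and which took at most 9.26% and 7.16% of the counts, summing changed no call.

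**Figure D3:**
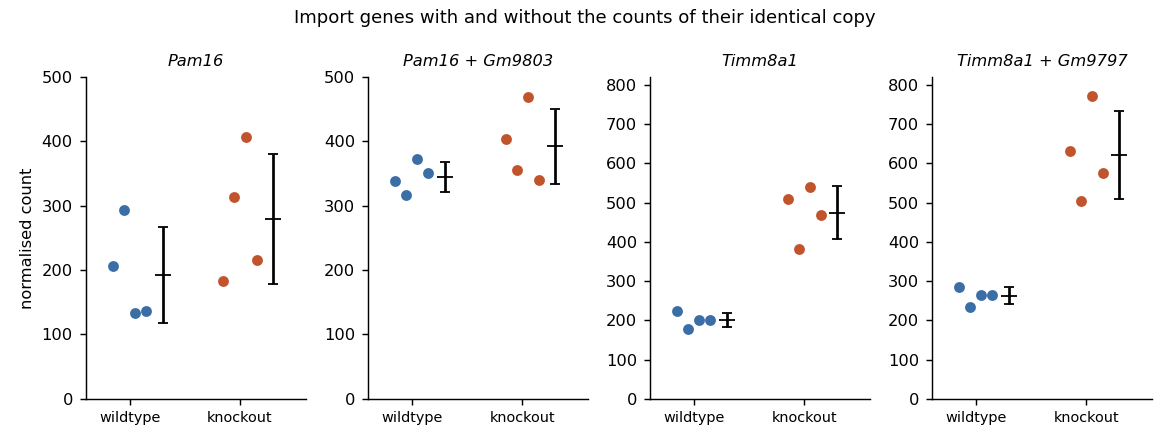
Normalised counts of Pam16 and Timm8a1 in each of the 4 wildtype and 4 knockout libraries, as deposited and with the counts of the copy of identical coding sequence added, with mean and SD beside the points. Adding Gm9803 narrows the spread of Pam16 from 133.3 to 293.0 down to 316.9 to 373.5 in the wildtype, while the groups of Timm8a1 stay apart with and without Gm9797.

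**Figure D4:**
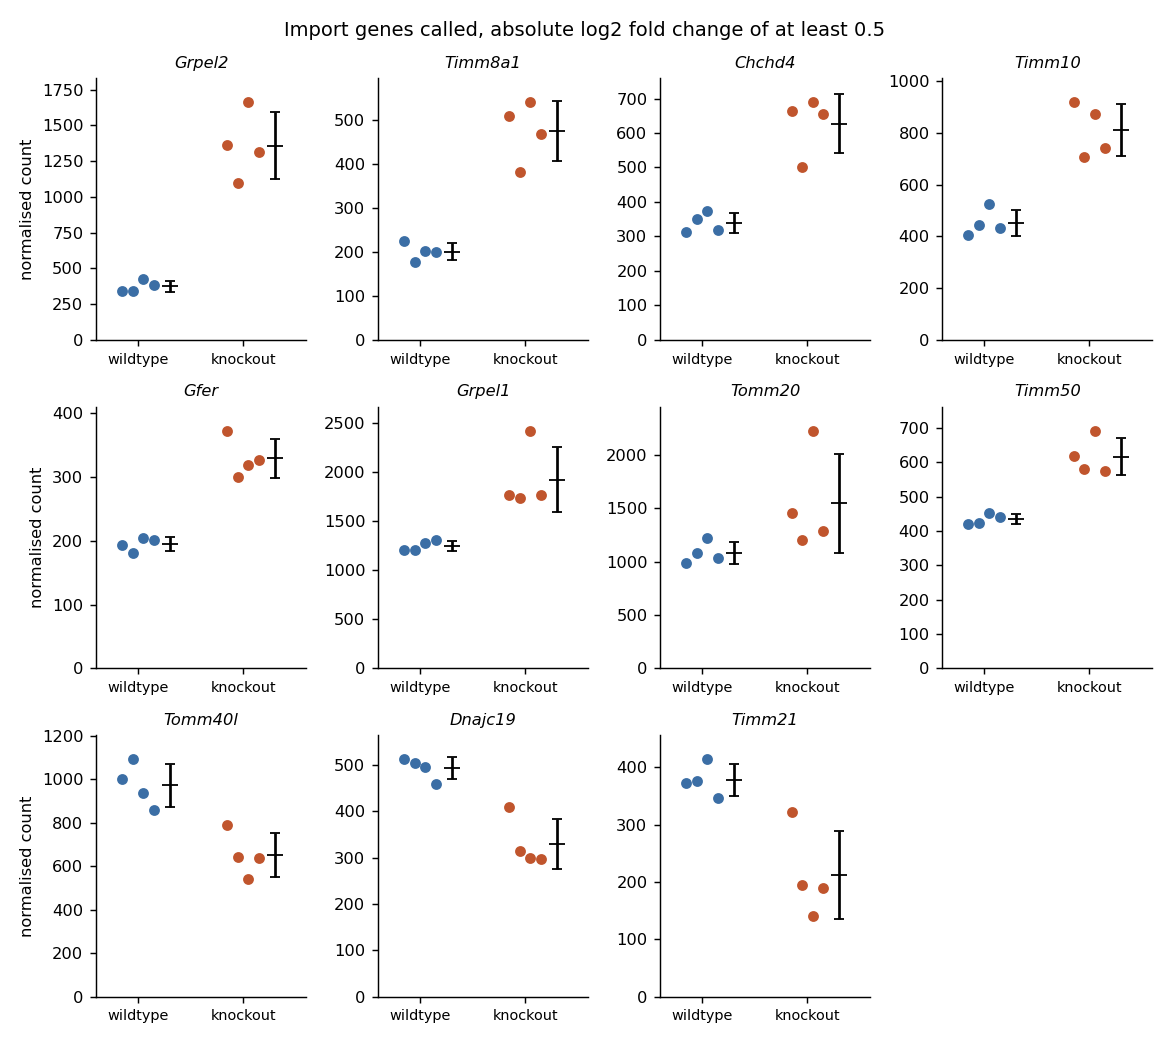
Normalised counts of the 11 called import genes with an absolute log2 fold change of at least 0.5, in each of the 4 wildtype and 4 knockout libraries, with mean and SD beside the points and axes from 0. Tomm20 is the gene whose groups overlap, and knockout replicate 3 is its highest library with 2226.

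The next question was whether paralogues with related tasks kept their proportion. The ratio of 2 genes within a library does not depend on how the libraries are scaled, so it was taken for 7 pairs as the log2 ratio of counts per effective length. The 8th listed pair, Tomm20 with Tomm20l, could not be compared because Tomm20l had no counts. In 6 of the 7 pairs the ratios of the knockout libraries lay wholly to one side of the wildtype (exact permutation test, two-sided p = 0.0286 each, the smallest that 4 against 4 libraries allow, adjusted p = 0.0333 over the 7 pairs). Each of these 6 pairs holds a member called above, so the ratios are not independent of those calls. The share of other gene pairs that separate in this way was not computed. Among single genes, 16.7% lay wholly above and 16.4% wholly below. Grpel1 to Grpel2 went from a mean ratio of 3.84 to 1.63, a log2 difference of -1.24. Dnajc19 to Dnajc15 went from 0.735 to 0.367, a log2 difference of -1.001. The per-library log2 ratios of this pair were -0.43, -0.39, -0.50 and -0.45 in the wildtype and -1.14, -1.38, -1.90 and -1.36 in the knockout. Timm8a1 to Timm8b went from 0.0727 to 0.172, with a log2 difference of 1.24.

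Changes in the other pairs were smaller. Tomm40 to Tomm40l went from 0.971 to 1.42, a log2 difference of 0.55, so the pore gene and its paralogue were at like levels in the wildtype and the pore gene was ahead in the knockout. Timm10 to Timm10b went from 1.18 to 1.75 (log2 difference 0.57). For Timm17a to Timm17b the ratio went from 7.80 to 9.88, a log2 difference of 0.34, and the lowest knockout value, 3.08 on the log2 scale, was close to the highest wildtype value, 3.04. Mtx1 to Mtx3 had overlapping ratios, with a log2 difference of 0.27 (exact permutation test, two-sided p = 0.229, adjusted p = 0.229). This difference was 0.093 when counts were not divided by effective length, and it ran from 0.16 to 0.42 over the omissions of 1 library.

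**Figure D5:**
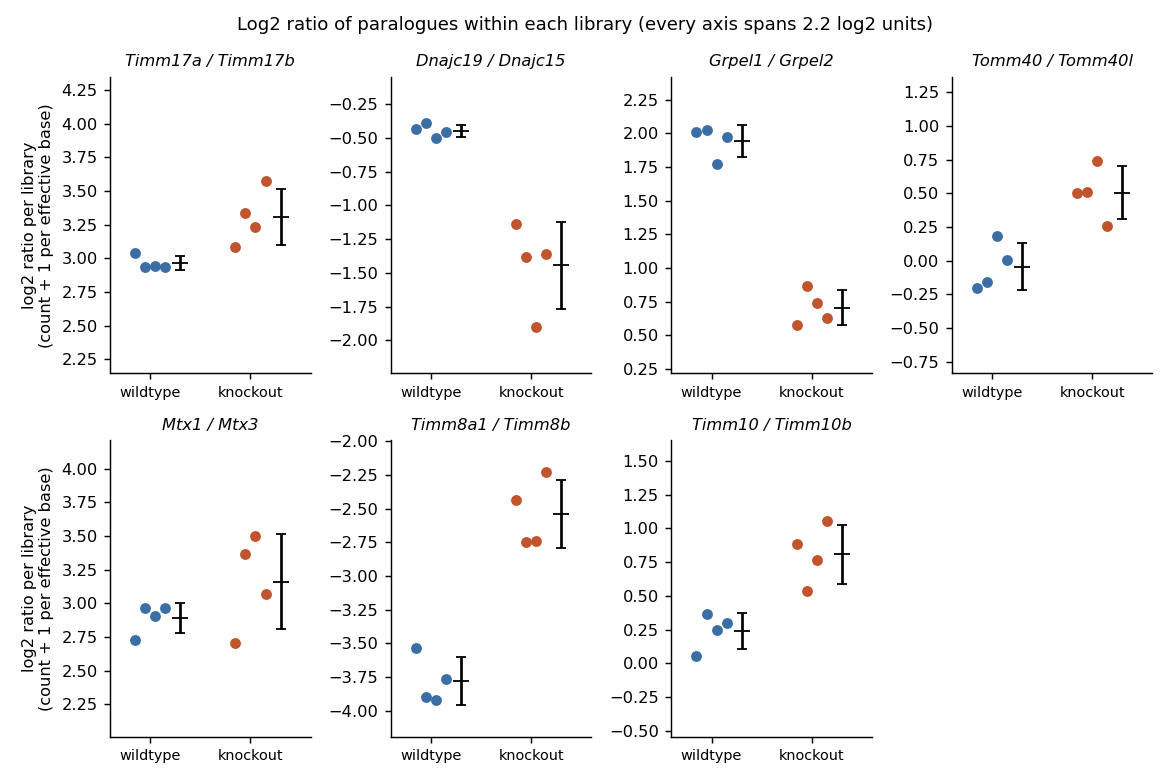
Log2 ratio of 7 paralogue pairs within each library, from counts plus 1 per effective length, for the 4 wildtype and 4 knockout libraries, with mean and SD beside the points. The groups are apart in 6 pairs, most widely for Grpel1 to Grpel2, Timm8a1 to Timm8b and Dnajc19 to Dnajc15, and overlap for Mtx1 to Mtx3.

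Genes whose products sit in the same complex were also set side by side, in 5 pairs chosen after their values were seen and given without a test. Timm10 to Timm9, the ring partners, had a mean ratio of 3.92 in the wildtype and 5.59 in the knockout. Timm8a1 to Timm13 had 0.193 and 0.411. Timm17a to Timm23 had 0.742 and 1.09, and Timm50 to Timm21 had 1.03 and 2.69. For Chchd4 to Gfer, which both rose, the ratio was 0.871 in the wildtype and 0.951 in the knockout, and its per-library values overlapped between the groups.

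Other genes of the import pathway outside the set were counted from a list of 20, which holds the Hsp70 protein of the motor, the processing peptidases, other insertases and the chaperonins, and also genes less directly tied to import, among them Immt, Chchd3 and Dnajc11 of cristae organisation, Timmdc1 of complex I assembly and Atad1. Dnajc11 is 1 of the genes that rose. Of the 20 listed genes, 7 were higher and 4 lower, with a median log2 fold change of 0.11 (DESeq2). These are 35% and 20% of the list, beside 18.2% and 15.5% of all genes tested, so the lower share was near that of all genes. Without wildtype replicate 4 the number of calls in the list was 7 rather than 11, while that over all genes was 5554 rather than 6728. Under total counts 10 of the list were called, where 7836 of all genes were. Under total counts without mitochondrial rRNA 16 were called, where 9020 of all genes were. The largest change was in Hspa9, the ATPase of the motor served by Grpel1 and Grpel2, which had 11001 ± 454 normalised counts in the wildtype and 21497 ± 2056 in the knockout (SD, n = 4). Its log2 fold change was 0.97 ± 0.09 (SE, DESeq2, adjusted p = 9.27e-23), and it was 0.66 under total counts. Hspe1, the co-chaperonin of the matrix, had 0.65 (DESeq2, adjusted p = 0.000851), which was 0.33 under total counts (DESeq2, adjusted p = 0.0572). The peptidase genes Immp1l and Mipep fell by 0.58 and by 0.52 on the log2 scale (DESeq2, adjusted p = 0.00129 and 1.73e-07). Under total counts without mitochondrial rRNA neither Immp1l nor Mipep passed (DESeq2, adjusted p = 0.386 and 0.346).

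Promoter windows from RefSeq (GRCm38.p6), from 250 bases before to 50 after the start of a gene, were found for 32 of the 36 members. The letters TGATGNAA, searched on both strands, were in none of the 32 genes, against 4.51% of all 27025 genes with a window. CCAAT, also on both strands, was in 10 of the 32 genes, or 31.2%, against 41.1% of all genes with a window. Counted by window, CCAAT was in 37.4% of all 32851 promoters and TGATGNAA in 3.97%. The 10 were Dnajc19, Grpel1, Samm50, Timm17a, Timm17b, Timm44, Timm50, Tomm20l, Tomm40 and Tomm6. They thus included 3 genes that rose, 1 that fell, 5 that did not pass and 1 without counts. The entries of Grpel2, Timm21, Tomm40l and Tomm7 were not analysed here.

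Within the knockout group, the highest and lowest libraries were counted over the members, which share each library and are not independent. The same counts over all genes were not made, and replicate 3 stood apart on the second principal component, as given above. Of the 34 measured members, knockout replicate 3 was the highest knockout library for 20, replicate 1 for 12, and replicates 2 and 4 for 1 each. Replicate 2 was the lowest for 15 and replicate 4 for 14. Of the 6 lower members, 3 had their lowest value in replicate 3. Replicates 3 and 2 had the highest erythroid marker sums of all libraries, 39945 and 32535 against 14872 to 19192 in the wildtype, and the lowest endothelial marker sums, 9564 and 11024 against 13367 to 14721. The fibroblast marker sum of replicate 3, 16247, and its macrophage marker sum, 2140, were the lowest of the knockout group and near the wildtype values, and its atrial marker sum of 1268 compared with 3233 to 6012 in knockout replicates 1, 2 and 4 and with 9980 to 12038 in the wildtype. The part of these differences in the member values was not tested.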

How the data were processed

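RNA sequencing libraries from 8 mouse hearts were grouped by their titles, 4 wildtype and 4 Lrpprc knockout. Per the labels and the methods of the study, RNA was depleted of cytoplasmic rRNA and primed with random hexamers. The authors made the deposited expected counts, TPM values and effective lengths (other values, in bases) with RSEM 1.2.31 and bowtie2 from reverse-stranded paired-end reads and GENCODE M13 transcripts (mm10), to which they added their own mitochondrial sequences. RSEM divides reads that match several genes. The authors' own comparison table (fold changes and p-values) and a table of normalised counts, whose 8 columns match no sample label, were not used.

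Expected counts were rounded and fitted with DESeq2 1.42.0 in R 4.3.3 on all genes. The model held genotype, an offset of effective lengths as tximport makes it for the authors, and size factors by the median of ratios, with Benjamini-Hochberg adjustment and a threshold of 0.05. Genes without an adjusted p were left out of the counts of genes tested. Normalised counts are corrected for length and library. GENCODE M21 gave symbols and GRCm38 coordinates for 50339 of the 50563 Ensembl records. Copies were transcripts at 95% identity or more over at least 200 bases (blastn), same strand. Paralogue ratios, with 1 added to each count, were compared by exact permutation over 70 assignments where both genes had a mean of at least 10 normalised counts. As alternatives, edgeR 4.0.16 with TMM, a fit that ignored length, a filter keeping genes that reached 10 counts in 4 libraries, nuclear size factors, scaling to total counts with and without mitochondrial rRNA, copies summed, a replicate block, other settings of the ratios and the share, and the omission of each library were run. The fits were tested on simulated data, where the share of unchanged genes among the calls exceeded the threshold with both tools and was larger with DESeq2 than with edgeR, so single calls near the threshold are less certain than their adjusted p.

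Depth was about 35218500 to 47743400 counts, of which 12414400 to 18692000 lay outside the mitochondrial genome and its copies. The measured members had at least 123 counts in each library. No 2 libraries of a group agreed within sampling noise (chi-square per degree of freedom 3.66 to 48.6). Intervals and floors cover counting error or the fitted standard error only.

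All members are named. Values per library are given for called members with an absolute log2 fold change of at least 0.5 and for the paralogues tested, and of the other pathway genes the 4 largest called changes. The members and lists were chosen with earlier results of these data known.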

Additional observations from a re-analysis of the deposited data

Results flagged for a closer look

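Single libraries far from the other 3 of their group, by Dixon's test at the 95% level, were found in 8 of 70 groups of 4, where chance gives about 3.5. In the wildtype, Tomm22 had 827.8 normalised counts in replicate 3 against 732.8 to 744.3 in the others, and Mtx3 had 414.0 in replicate 1 against 374.0 to 377.5. In the knockout, replicate 3 had 2498 for Tomm70a against 1876 to 1977 and 2420 for Grpel1 against 1737 to 1765. Replicate 1 of the knockout had 1254 for Tomm5 against 859.8 to 917.6 and 410.2 for Dnajc19 against 297.3 to 313.6. Timm10b had 284.5 in knockout replicate 4 against 389.7 to 409.7, and Lrpprc had 504.3 in knockout replicate 2 against 597.4 to 605.4. Without knockout replicate 3 the calls of Tomm70a and Grpel1 held, and without knockout replicate 1 that of Dnajc19 held (DESeq2). Without wildtype replicate 1 the call of Mtx3 was lost (DESeq2, adjusted p = 0.0845), and without knockout replicate 4 Timm10b was called (DESeq2, adjusted p = 0.0299). Tomm22 and Tomm5 were not called with or without these libraries.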

How the results depend on the processing

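Scaling to totals was the choice that moved the counts most, while nuclear size factors left them at 12 and 6. Under total counts 6 members were higher and 12 lower, and Tomm22 (-0.27), Tomm34 (-0.20), Tomm5 (-0.074), Tomm6 (-0.18), Samm50 (-0.27), Timm8b (-0.30), Timm10b (-0.029), Timm13 (-0.15), Timm17b (-0.14) and Timm44 (-0.19) turned negative. Without mitochondrial rRNA in the total, 27 were higher and 0 lower, and Tomm40 (0.40), Tomm7 (0.37), Mtx1 (0.25), Timm22 (0.042) and Timm23 (0.37) turned positive. As a share of all counts the members' sum had a log2 ratio of -0.072. Without a length offset Tomm40 had 0.028 and Timm17b -0.013, Timm10b had 0.077, and Mtx1 was also called, at -0.36. With edgeR Timm8b had -0.015.

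Same-numbered libraries had correlations of deviations from -0.07 to 0.07, and differently numbered ones from -0.12 to 0.13. No pairing by number was seen, but so few correlations cannot exclude it, and the titles give only the replicate numbers. With the replicate block 12 members were higher and 5 lower, where 2916 of all genes were higher and 2580 lower rather than 3628 and 3100, Timm22 not passing (DESeq2, adjusted p = 0.0693), and Timm8b had -0.011. For the paralogue ratios the block leaves the mean difference as it is by arithmetic, -1.24 for Grpel1 to Grpel2, and 4 pairs cannot give a two-sided p under 0.125.

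Leaving out 1 library at a time, 10 to 14 members were higher, 4 to 6 lower, and 7 to 11 of the other pathway genes were called, while 5528 to 6969 of all genes were called, against 6728 with all libraries. The fold changes that turned ranged from -0.020 to 0.067 (Tomm22), -0.13 to 0.058 (Tomm40), -0.11 to 0.044 (Tomm7), -0.059 to 0.11 (Samm50), -0.14 to 0.11 (Timm8b) and -0.19 to 0.031 (Timm23), none of them called. The causes were not tested.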
